A study of Mus musculus with 30 samples.

Results

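The genes described here lie on mouse chromosome 15 within 10 Mb of Mapk11, between 78.97 and 98.97 Mb of the mm9 build. A probe placed there by the array files counted if, in 1 group or more, 4 or all 5 arrays marked it as well above background. The window held 437 probes, and 302 of them passed. After the brightest probe was taken for each gene, 240 of the 18726 genes measured on the array belonged to the set. Mapk11 itself, Mapk12 and 4 other genes of the window were left out of it. Of the 240 members, 146 lay proximal to Mapk11 and 94 distal. The filter was passed in all 6 groups by 159 members and through 1 group alone by 17, so those 17 had to be bright in that group. At the edge of the filter, 22 probes reached 4 of 5 arrays at best, with a median level of -3.34 on the log2 scale relative to the 75th percentile of their array, and 21 probes reached 3 of 5 and were left out, with a median of -3.99.

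Mapk11 encodes p38 beta and Mapk14, on chromosome 17, encodes p38 alpha, stress-activated protein kinases that relay signals from cytokines, DNA damage and other insults. Genes that are close together on a chromosome are usually inherited together, so the neighbours of a locus are commonly inspected when lines of mice that differ at that locus are compared. The window is rich in genes of mixed function: mitochondrial import and metabolism, chromatin regulators, kinases, tubulins, antiviral deaminases and a cluster of hepatic cytochrome P450 genes.

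The study measured blood RNA on single-colour arrays in mice of the genotypes p38DKI, p38DN and p38WT, sampled 24 h after an x-ray dose of 7 Gy or without irradiation, with 5 independent experiments in each of the 6 groups. All mice were C57BL/6J males according to the labels, and all blood was taken by cardiac puncture into PAXgene solution. The labels write the genotypes as p38DKI and p38DN without spelling them out, and the alleles, breeding history and age are not given in the sources used here. Every level below is a log2 value relative to the 75th percentile of its array, and differences are log2 differences with the standard error (SE) of limma's fit over all 30 arrays. Genes are said to pass where the limma p, adjusted by Benjamini-Hochberg across the 18726 genes, was under 0.05. The p-values measure the spread between arrays, and 5 arrays a group limit the precision of each value.

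The share of probes marked as well above background ran from 39.7 to 63.2% per array. The lowest share was that of irradiated p38WT array 3, which also had the most spots marked as outliers (579). The p38DKI and p38WT arrays shared 5 slides scanned on 1 day, but no slide held p38DKI and p38WT arrays of the same dose, so genotype at 1 dose and slide are largely joined. The p38DN arrays filled other slides scanned on 5 earlier days, so p38DN against p38WT cannot be told apart from the slide set. Transcripts typical of liver, summarised as the mean level of 18 markers, were high on irradiated p38DKI array 2 (8.64) and ranged from 0.34 to 7.65 on the unirradiated p38DN arrays, against -3.27 to -2.37 on unirradiated p38WT arrays. For the differences between p38DKI and p38WT after 7 Gy, the calls that were lost without irradiated p38DKI array 2 are therefore named. This was checked for the brightest probe of each gene and for all probes of Apobec3 and Sult4a1. In whole blood, fewer cells of a type and less RNA per cell cannot be told apart.

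The differences that passed at both doses were carried by probes of Tomm22, Apobec3 and Sult4a1. The probe of Arhgap8 passed in unirradiated blood. These sequences are shown because they are the probes that passed at 0 Gy, together with the remaining Apobec3 probe, and because the size of the difference varied between probes of 1 gene. All are 60 bases long, are printed 5′ to 3′ as the array files give them, with mm9 coordinates and strand, and no base is set in capitals.
Tomm22 probe, chr15:79503096-79503155, plus strand: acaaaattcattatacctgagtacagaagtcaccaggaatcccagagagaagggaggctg
Apobec3, the first probe, chr15:79725905-79725964, plus strand: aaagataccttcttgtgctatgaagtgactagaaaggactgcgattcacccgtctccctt
Apobec3, the second probe, chr15:79738107-79738166, plus strand: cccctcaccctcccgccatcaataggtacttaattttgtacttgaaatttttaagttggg
Apobec3, the third probe, chr15:79746081-79746140, plus strand: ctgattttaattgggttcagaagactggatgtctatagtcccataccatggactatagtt
Sult4a1, the first probe, chr15:83906546-83906605, minus strand: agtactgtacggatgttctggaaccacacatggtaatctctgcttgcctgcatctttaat
Sult4a1, the second probe, chr15:83907872-83907931, minus strand: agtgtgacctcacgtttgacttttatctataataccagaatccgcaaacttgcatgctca
Sult4a1, the third probe, chr15:83909227-83909286, minus strand: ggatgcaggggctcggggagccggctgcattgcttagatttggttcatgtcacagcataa
Arhgap8 probe, chr15:84602532-84602591, plus strand: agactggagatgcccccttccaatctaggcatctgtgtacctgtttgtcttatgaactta

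The first comparison asked which of the 240 neighbours differed between p38DKI and p38WT in unirradiated blood. Sult4a1 and Arhgap8 were higher in p38DKI and Tomm22 was lower, and these were the 3 members that passed. That is 1.25% of the members, against 0.101% of all genes (19 of 18726). By direction, 2 members were higher, against 0.0854% of all genes, and 1 was lower, against 0.016%. At an unadjusted p under 0.05, 26 members lay past the threshold (10.8%), against 7.35% of all genes. The median difference was 0.12 over the members and 0.08 over all genes. The median absolute difference was 0.26 over the members and 0.21 over all genes.

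Sult4a1 encodes a sulfotransferase family member best known from brain. Its first probe, which stood for the gene, read 4.61, 4.10, 3.97, 4.14 and 4.54 on unirradiated p38DKI arrays, against -2.68, -2.86, -2.36, -3.07 and -2.04 on unirradiated p38WT arrays. The lowest p38DKI array was far above the highest p38WT array. The difference was 6.88 (SE 0.40), a 117-fold higher level (limma, adjusted p = 8.83e-12). After 7 Gy the same probe read 6.26, 3.58, 5.59, 5.26 and 5.66 in p38DKI and -1.77, -2.59, -2.07, -2.49 and -2.34 in p38WT. Again no p38DKI array came near the p38WT arrays, and the lowest p38DKI value belonged to array 2. The difference after irradiation was 7.52 (SE 0.40, limma adjusted p = 9.24e-13), and 7.95 without irradiated p38DKI array 2.

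The other 2 Sult4a1 probes were also higher in p38DKI at both doses, at lower signal. The second probe averaged -0.30 ± 0.32 in unirradiated p38DKI and -5.29 ± 0.32 in unirradiated p38WT (SD, n = 5 each). It was not well above background on any p38WT array, so the gene was at least 9.35-fold higher at this probe in unirradiated p38DKI blood and at least 17.8-fold higher after 7 Gy. For that bound each dim level was raised to at least the lowest well-detected level of its array. The third probe averaged -0.45 ± 0.34 in unirradiated p38DKI and -4.32 ± 1.05 in unirradiated p38WT (SD, n = 5 each). It differed by 3.87 (SE 0.41, limma adjusted p = 2.58e-06 over all 23617 probes), and after 7 Gy it was at least 12.1-fold higher in p38DKI. With slide as a fixed block the second probe passed after 7 Gy (limma, adjusted p = 0.00220) and not at 0 Gy (limma, adjusted p = 0.0527), and the third probe passed at neither dose (limma, adjusted p = 0.775 at 0 Gy and 0.798 after 7 Gy).

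Tomm22 encodes the central receptor of the translocase through which proteins enter mitochondria. It read 0.50, 0.14, 0.46, 0.53 and 0.38 on unirradiated p38DKI arrays, against 1.84, 1.67, 1.97, 2.34 and 2.53 on unirradiated p38WT arrays. The groups did not overlap. The level was lower in p38DKI by a log2 difference of -1.66 (SE 0.20), which is 3.17-fold (limma, adjusted p = 7.86e-05). After 7 Gy Tomm22 read 0.80, 0.12, 1.0, 0.83 and 0.27 in p38DKI and 3.13, 2.07, 2.44, 2.35 and 2.64 in p38WT, again without overlap. That difference was -1.92 (SE 0.20, limma adjusted p = 4.32e-06), and -1.80 without irradiated p38DKI array 2 (limma adjusted p = 2.34e-05).

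Arhgap8 encodes a GTPase-activating protein. Its probe read -2.49, -1.76, -1.45, -1.94 and -2.03 on unirradiated p38DKI arrays, against -5.54, -4.07, -4.97, -4.57 and -3.95 on unirradiated p38WT arrays. All 5 p38DKI arrays were above the p38WT arrays, and none of the 5 p38WT arrays was well above background. The gene was therefore at least 3.02-fold higher in p38DKI, with a fitted difference of 2.68 (SE 0.37, limma adjusted p = 0.000558). After 7 Gy the values were -2.83, -3.95, -3.36, -2.39 and -3.09 in p38DKI and -3.77, -4.43, -2.29, -4.51 and -3.48 in p38WT, and the groups overlapped. The difference of 0.57 did not pass there (limma, adjusted p = 0.351), nor did the change of the difference with dose, at -2.11 (SE 0.53, limma adjusted p = 0.109).

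**Figure D1:**
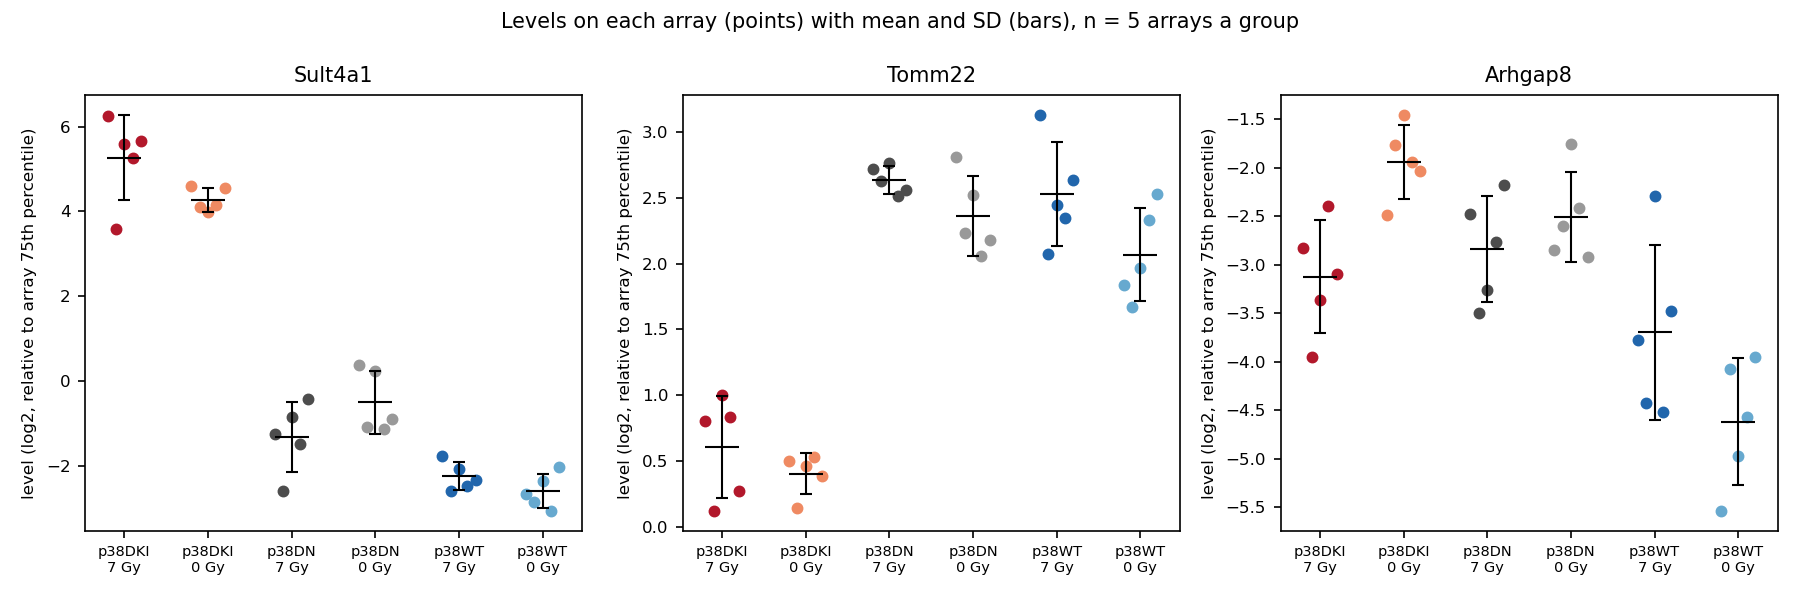
Levels of Sult4a1, Tomm22 and Arhgap8 on each array (log2 relative to the array's 75th percentile, vertical axes), for the 6 groups of 5 arrays, with mean and SD as bars. Sult4a1 lies between 3.58 and 6.26 on all p38DKI arrays and at or below 0.37 on all p38DN and p38WT arrays, and Tomm22 lies at or below 1.0 on all p38DKI arrays and at or above 1.67 on all others.

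The p38DN arrays give a further level for these genes. Sult4a1 averaged -1.32 ± 0.82 in irradiated p38DN and -0.50 ± 0.74 in unirradiated p38DN, against -2.25 ± 0.33 in irradiated p38WT and -2.60 ± 0.41 in unirradiated p38WT (SD, n = 5 each). The unirradiated p38DN value was 2.10 above p38WT (limma, adjusted p = 8.68e-05) at the first probe, while the second probe was not well above background on any p38DN array. Tomm22 averaged 2.64 ± 0.11 in irradiated and 2.36 ± 0.30 in unirradiated p38DN (SD, n = 5 each), and neither differed from p38WT past the threshold. Arhgap8 averaged -2.51 ± 0.47 in unirradiated p38DN (SD, n = 5), at least 2.03-fold above unirradiated p38WT. Slide set and genotype cannot be told apart in these p38DN values.

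Apobec3, a cytidine deaminase that restricts retroviruses, did not pass at 0 Gy through the probe that stood for the gene, but its other 2 probes did. The third probe read -3.46, -3.37, -2.79, -3.17 and -3.79 on unirradiated p38DKI arrays, against 0.59, 0.36, 0.27, 1.05 and 0.88 on unirradiated p38WT arrays. The p38DKI arrays were all far below, and 2 of the 5 were well above background. The difference was -3.95 (SE 0.40, limma adjusted p = 1.57e-06 over all probes). After 7 Gy it read -3.43, -5.85, -3.95, -3.61 and -3.58 in p38DKI (1 of 5 well above background) and 1.14, -0.03, -0.08, -0.50 and 0.04 in p38WT. The difference was -4.19 (SE 0.40, limma adjusted p = 4.26e-07), and -3.75 without irradiated p38DKI array 2. With slide as a fixed block this probe differed by -3.73 at 0 Gy and -3.36 after 7 Gy and passed at neither dose (limma, adjusted p = 0.716 at 0 Gy). On the p38DN arrays this probe averaged -0.22 ± 0.31 after 7 Gy and 0.64 ± 0.94 at 0 Gy (SD, n = 5 each), and neither value differed from p38WT past the threshold.

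The first Apobec3 probe was also lower in p38DKI at both doses. It averaged -4.12 ± 1.31 in unirradiated p38DKI and -1.87 ± 0.24 in unirradiated p38WT (SD, n = 5 each), a difference of -2.25 (limma, adjusted p = 0.00824), and after 7 Gy the difference was -2.01 (limma, adjusted p = 0.00604; -2.04 without irradiated p38DKI array 2, limma adjusted p = 0.0148). With slide as a fixed block it kept its sign and passed at neither dose (limma, adjusted p = 0.843 at 0 Gy). It was well above background on 1 of 5 p38DKI arrays at each dose. The second probe, the brightest, differed least. It averaged 2.46 ± 0.19 in unirradiated p38DKI and 3.80 ± 0.29 in unirradiated p38WT (SD, n = 5 each), a difference of -1.34 without overlap (limma, adjusted p = 0.0731 over all genes). After 7 Gy it differed by -1.13 (limma, adjusted p = 0.0308; -0.79 without irradiated p38DKI array 2, limma adjusted p = 0.0994). The 3 Apobec3 probes thus span 2.61 log2 units of difference at 0 Gy and 3.07 after 7 Gy. At both outer probes most p38DKI arrays were not well above background, so the span is of fitted differences, not of levels measured in every group.

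**Figure D2:**
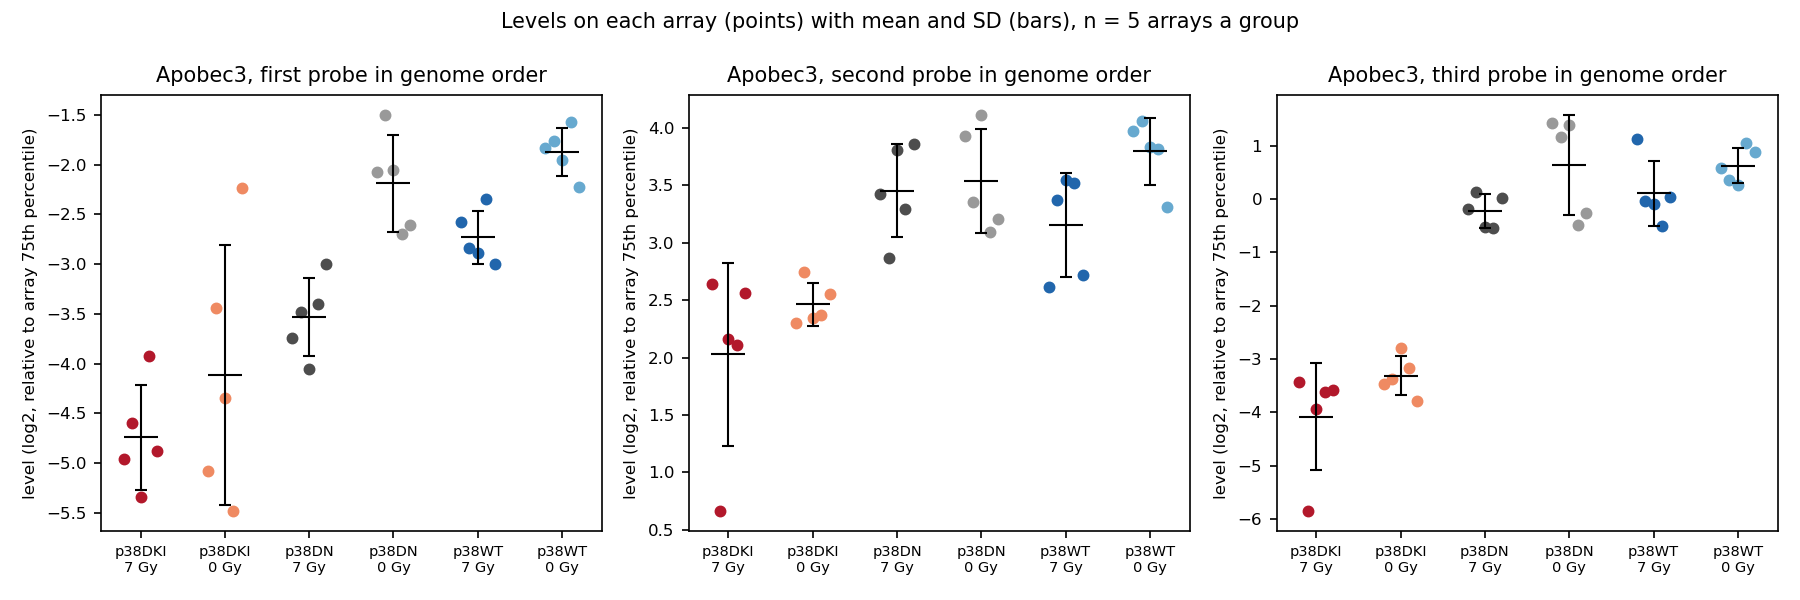
Levels of the 3 Apobec3 probes on each array (log2 relative to the array's 75th percentile, vertical axes with different ranges), for the 6 groups of 5 arrays, with mean and SD as bars. The p38DKI arrays of the third probe lie at or below -2.79 and all p38DN and p38WT arrays at or above -0.55, whereas the groups of the second probe lie closer together.

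When every probe was tested on its own, 7 member probes passed at 0 Gy, which is 2.32% of 302 against 0.106% of all 23617 probes. After 7 Gy 36 member probes passed, 11.9% against 4.91%. The comparisons at the 2 doses share no array. Over the whole array 10 probes passed at both doses in the same direction, and 6 of them were member probes, those of Tomm22, Sult4a1 (3) and Apobec3 (2). A further 1 was the probe of Mapk11, whose level was 0.33 ± 0.39 in irradiated p38DKI and -1.33 ± 0.42 in irradiated p38WT, and 1.69 ± 0.31 in unirradiated p38DKI and 0.25 ± 0.24 in unirradiated p38WT (SD, n = 5 each). The other 3 lay on other chromosomes and were Patz1, Dnaaf5 and a probe with no gene name.

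No slide held p38DKI and p38WT at the same dose, but 1 slide held unirradiated p38DKI arrays 1 and 2 beside irradiated p38WT arrays 4 and 5. On that slide Sult4a1 read 4.61 and 4.10 in p38DKI, against -2.49 and -2.34 in p38WT. Tomm22 read 0.50 and 0.14 in p38DKI, against 2.35 and 2.64 in p38WT. Arhgap8 read -2.49 and -1.76 in p38DKI, against -4.51 and -3.48 in p38WT. These are values already given above, from arrays that also differ in dose, so they are not a separate test. For Sult4a1 and Tomm22 no p38DKI array overlapped a p38WT array of either dose. Their order within the slide was therefore fixed in advance. With slide as a fixed block the unirradiated differences were 6.67 for Sult4a1 (limma, adjusted p = 0.0145), -2.16 for Tomm22 (limma, adjusted p = 0.764) and 2.32 for Arhgap8 (limma, adjusted p = 0.839), so Sult4a1 alone passed in that fit.

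No cell type marker of 8 lists (liver, heart muscle, B cell, T cell, neutrophil, monocyte, erythroid, platelet) passed between unirradiated p38DKI and p38WT blood (limma). With only 0.101% of all genes passing there, this does not show that the cell types were alike. Markers of blood were present on these arrays, with erythroid markers (list means of 7.64 to 8.59 in unirradiated p38DKI and 7.64 to 8.29 in unirradiated p38WT) and platelet markers (6.00 to 6.70 in unirradiated p38DKI and 5.66 to 6.64 in unirradiated p38WT). The unirradiated p38DKI arrays had liver marker means between -2.26 and 3.25, against -3.27 to -2.37 in unirradiated p38WT, without overlap. A fit that took the liver marker mean as a covariate passed 10 members at 0 Gy, with 1.53% of all genes. Over 15 alternative settings Sult4a1 passed at 0 Gy in 15, Tomm22 and Arhgap8 in 13 each, and Apobec3, which missed the threshold in the fit reported here, in 9.

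After 7 Gy, 24 members differed between p38DKI and p38WT, 5 higher and 19 lower in p38DKI. That is 10% of the members, against 4.51% of all genes (844). The higher share was 2.08% against 1.15%, and the lower share 7.92% against 3.36%. Count and split depended on the scaling. They were 1 higher and 2 lower with array medians (0.47% of all genes), 1 and 0 without scaling (0.406%), 5 and 13 with quantile normalization (3.34%), 6 and 13 with the percentile over probes detected on all arrays (3.51%) and 4 and 5 with the deposited value table (1.69%). When the 2 groups were fitted alone, 1 member passed, as higher, with 0.00534% of all genes. The count also moved with single p38WT arrays. Without irradiated p38WT array 4, 10 members passed (1.72% of all genes), and without irradiated p38WT array 3, 16 did (2.72%). Without irradiated p38DKI array 2, the array rich in liver transcripts, 7 of the 24 still passed: Gtpbp1, Hdac7, Mief1, Rabl2, Sbf1, Sult4a1 and Tomm22. The other 17 did not, with adjusted p by limma between 0.0575 for Sun2 and 0.154 for Plxnb2. In a fit with the liver marker mean as covariate 4 of them did, Mief1, Rabl2, Sult4a1 and Tomm22, and with slide as a fixed block Sult4a1 alone, while 23 of the 24 kept their sign.

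Other values moved with dose and genotype here. The mean of 10 neutrophil markers lay between 3.05 and 4.67 on irradiated p38DKI arrays, against 4.97 to 5.50 on irradiated p38WT arrays, without overlap, and 4 of the 10 passed as lower. Of 8 erythroid markers 3 passed as lower, and of 18 liver markers 2 as higher. The part of neutrophil and erythroid RNA in the member differences after irradiation was not tested.

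Of 9 measured members on a list of mitochondrial proteins, 1 was lower at 0 Gy (Tomm22) and 2 were lower after 7 Gy (Tomm22 and Tspo). Over all genes 0.016% passed as lower at 0 Gy and 3.36% after 7 Gy. The median difference of the 9 after 7 Gy was -0.02, against -0.10 over all genes. Tspo, a cholesterol-binding protein of the outer mitochondrial membrane, read 6.02, 4.08, 5.57, 5.30 and 5.40 in irradiated p38DKI, against 5.85, 5.83, 6.69, 6.47 and 6.17 in irradiated p38WT. The groups overlapped through p38DKI array 1, and the lowest value was that of array 2. The difference was -0.93 (limma, adjusted p = 0.0421) and -0.63 without array 2 (limma, adjusted p = 0.143). Mief1, which recruits the fission machinery to mitochondria, was not on that list, so the counts depend on the list. Mief1 differed by -0.77 after 7 Gy (limma, adjusted p = 0.0351) and by -0.94 at 0 Gy (limma, adjusted p = 0.0731).

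Plxnb2, a semaphorin receptor, was higher in p38DKI after 7 Gy. It read 2.40, 4.61, 2.95, 2.76 and 2.88 in irradiated p38DKI, against 1.86, 1.14, 2.30, 0.71 and 2.55 in irradiated p38WT. The groups overlapped narrowly and array 2 was the highest of p38DKI. The difference was 1.41 (SE 0.40, limma adjusted p = 0.0427), and 1.04 without array 2 (limma, adjusted p = 0.154). Csnk1e, a casein kinase of the circadian clock, was lower in p38DKI, by a log2 difference of -1.15 (limma, adjusted p = 0.0186), and by -0.87 without array 2 (limma, adjusted p = 0.0644). Sbf1, a catalytically inactive myotubularin, read 3.34, 2.67, 3.08, 3.20 and 3.01 in irradiated p38DKI, against 3.38, 3.93, 3.94, 3.91 and 3.60 in irradiated p38WT, without overlap. Its difference was -0.69 (SE 0.15, limma adjusted p = 0.0140), and -0.59 without array 2 (limma, adjusted p = 0.0452).

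Rabl2, a Rab-like GTPase known from cilia, ran alike at both doses. It read -2.47, -2.48, -1.81, -2.96 and -1.93 in irradiated p38DKI, against -0.45, -1.30, -0.56, -0.91 and -0.86 in irradiated p38WT. It read -2.63, -4.07, -3.11, -2.96 and -3.20 in unirradiated p38DKI, against -1.53, -2.33, -1.65, -1.88 and -1.21 in unirradiated p38WT. The groups did not overlap at either dose. The difference was -1.51 after 7 Gy (SE 0.34, limma adjusted p = 0.0138) and -1.47 at 0 Gy (limma, adjusted p = 0.0855), where it missed the threshold.

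Of 7 immune cell members, Apobec3 and Nfam1 were lower in p38DKI after 7 Gy, where 3.36% of all genes passed as lower. The median of the 7 was -0.92, against -0.10 over all genes. Nfam1, an ITAM-bearing receptor that activates NFAT, read 3.95, 2.48, 4.71, 4.19 and 4.66 in irradiated p38DKI, against 5.10, 4.95, 5.16, 5.43 and 4.95 in irradiated p38WT. The groups did not overlap. The difference was -1.12 (limma, adjusted p = 0.0406) and -0.74 without array 2 (limma, adjusted p = 0.135). Of 19 chromatin and transcription regulators, 2 were lower, the class IIa deacetylase Hdac7 (-0.88, limma adjusted p = 0.0127) and the Polycomb protein Cbx6 (-0.86, limma adjusted p = 0.0406). Of 16 cytoskeletal and nuclear envelope members, Sun2 of the inner nuclear membrane was lower (-0.80, limma adjusted p = 0.0178). Beside the 3.36% of all genes, counts in lists this short are not read as results about these roles.

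Of 12 members of RNA processing and translation, the Hsp90 cochaperone Rpap3 was higher after 7 Gy, where 1.15% of all genes passed as higher. It read 0.99, 1.74, 1.26, 1.07 and 1.10 in irradiated p38DKI, against 0.18, 0.82, -1.19, 0.60 and 0.69 in irradiated p38WT. The groups did not overlap, with p38WT array 3 the lowest. The difference was 1.01 (SE 0.25, limma adjusted p = 0.0241) and 0.89 without irradiated p38DKI array 2 (limma, adjusted p = 0.0799). Without irradiated p38WT array 3 it was 0.66 (limma, adjusted p = 0.0398). Among 15 metabolic enzymes Sult4a1 was the 1 that passed, at both doses. None of 12 transporters and traffic proteins and none of 6 ubiquitin and SUMO pathway members passed between p38DKI and p38WT at either dose by limma. Over all genes 0.101% passed at 0 Gy and 4.51% after 7 Gy, so these counts are not read as results about the lists.

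Further members past the threshold after 7 Gy were Tef, a clock-controlled bZIP factor (1.22), and Tmem106c (0.85), both higher in p38DKI. Lower in p38DKI were Fam83f (-1.25), the GTP-binding protein Gtpbp1 (-0.92), Tmem184b (-0.89), Lmbr1l (-0.65) and the features that the array names ENSMUST00000170221.1 (-1.59), LF200447 (-1.06), LF200403 (-0.84) and ENSMUST00000229443.1 (-0.73). Their adjusted p by limma lay between 0.00655 for Gtpbp1 and 0.0424 for LF200403. Gtpbp1 read -0.25, -0.53, -0.44, -0.15 and -0.29 in irradiated p38DKI, against 0.43, 0.40, 1.26, 0.40 and 0.46 in irradiated p38WT, without overlap.

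The direction of the 24 members was also read in unirradiated blood. The comparisons at the 2 doses share no array, but they share slides, since 1 slide held p38WT arrays of both doses and another held p38DKI arrays of both doses, so the doses are not independent of slide. There, 19 of the 24 (79.2%) had the same sign, against 612 of the 844 genes (72.5%) that passed on the whole array. An unadjusted p under 0.05 with the same sign was reached by 9 of the 24 (37.5%), against 74 of the 844 (8.77%). The 9 were Tomm22, Gtpbp1, Cbx6, Apobec3, Mief1, Nfam1, Sult4a1, Sbf1 and Rabl2. Without overlap between the 5 and 5 arrays at 0 Gy stood 21 members (8.75%), against 2.88% of all genes, and 12 of them were higher in p38DKI (5%), against 2.11%. After 7 Gy 21 members (8.75%) did not overlap, against 6.34% of all genes. The members without overlap in the same direction at both doses numbered 5 (2.08%), against 0.187% of all genes (35). Sult4a1 was higher in p38DKI, and Tomm22, Rabl2, Nfam1 and Sbf1 were lower.

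**Figure D3:**
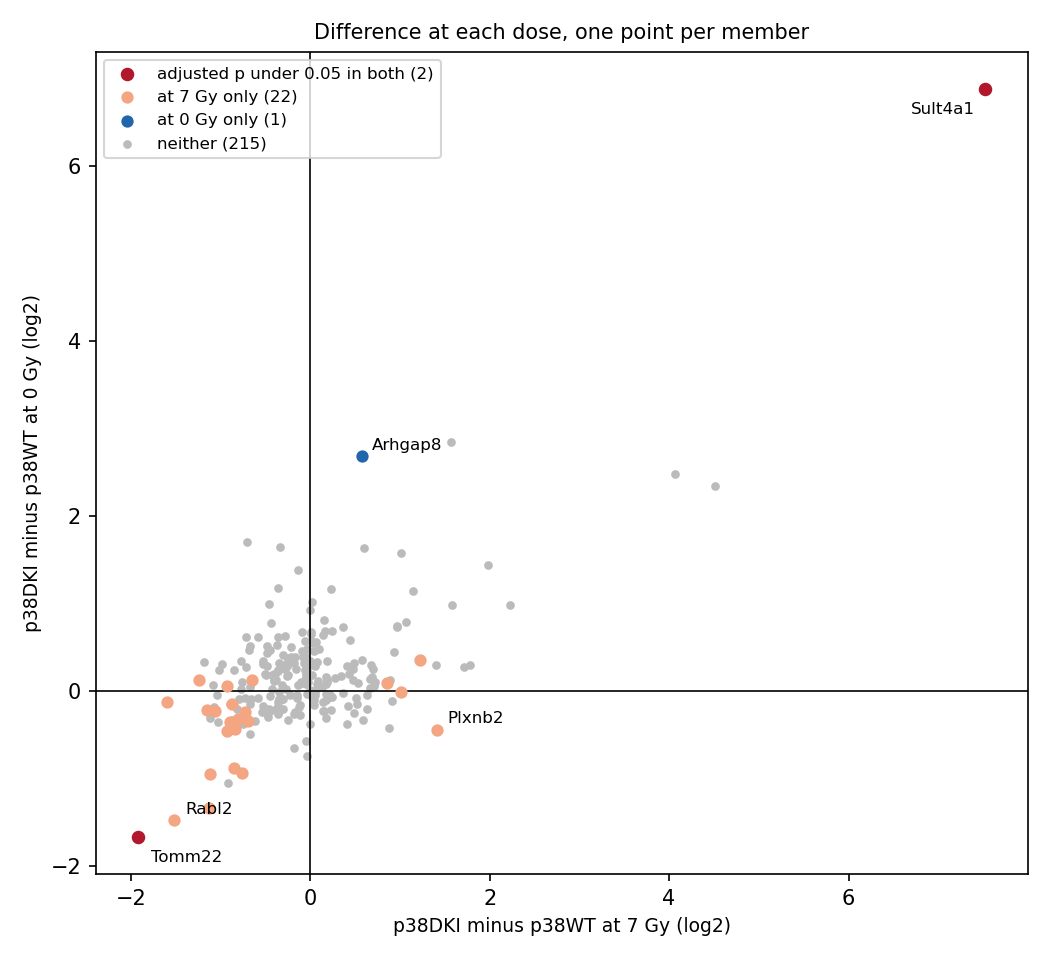
Difference between p38DKI and p38WT (log2) at 7 Gy (horizontal axis) and at 0 Gy (vertical axis), with 1 point for each of the 240 members, coloured by which comparison passed an adjusted p under 0.05. Sult4a1 at 7.52 and 6.88 lies far from the rest, Tomm22 at -1.92 and -1.66 is the other member that passed at both doses, and 215 members passed at neither.

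Whether the difference between p38DKI and p38WT depended on dose was asked of every member. By limma 0 members passed, against 0.00534% of all genes (1), and 33 (13.8%) had an unadjusted p under 0.05, against 13.9% of all genes. Probe by probe none of the 302 passed either (limma), against 0.00847% of all probes.

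Position within the window was described next. The 3 members that passed at 0 Gy were proximal to Mapk11, Tomm22 at -9.47 Mb, Sult4a1 at -5.07 Mb and Arhgap8 at -4.37 Mb, as was Apobec3 at -9.24 Mb. None of the 94 distal members passed at 0 Gy, none of the 488 genes elsewhere on chromosome 15 and none of the 478 genes within 10 Mb of Mapk14 (limma). After 7 Gy 10.3% of the proximal and 9.57% of the distal members passed, against 4.1% elsewhere on chromosome 15 and 8.16% near Mapk14. The stretch from -10 to -7.5 Mb held 44 members, of which 10 passed after 7 Gy, all 10 lower in p38DKI. Over all genes 3.36% passed as lower, and the other stretches of the window held between 0 and 5 passing members. Without irradiated p38DKI array 2, only Tomm22, Gtpbp1 and Mief1 of the 10 still passed. Csnk1e, Tmem184b, Sun2, Cbx6, Apobec3, Fam83f and ENSMUST00000170221.1 did not. The 10 members nearest to Mapk11, all within 0.15 Mb of it, differed by between -0.57 and 0.67 at 0 Gy and none passed (lowest limma adjusted p = 0.633). They were Hdac10, Selenoo, Tubgcp6, Trabd and 9030419F21Rik on the proximal side and Plxnb2, LF200432, Dennd6b, Ppp6r2 and Sbf1 on the distal side, and after 7 Gy 2 of them passed, Plxnb2 and Sbf1.

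**Figure D4:**
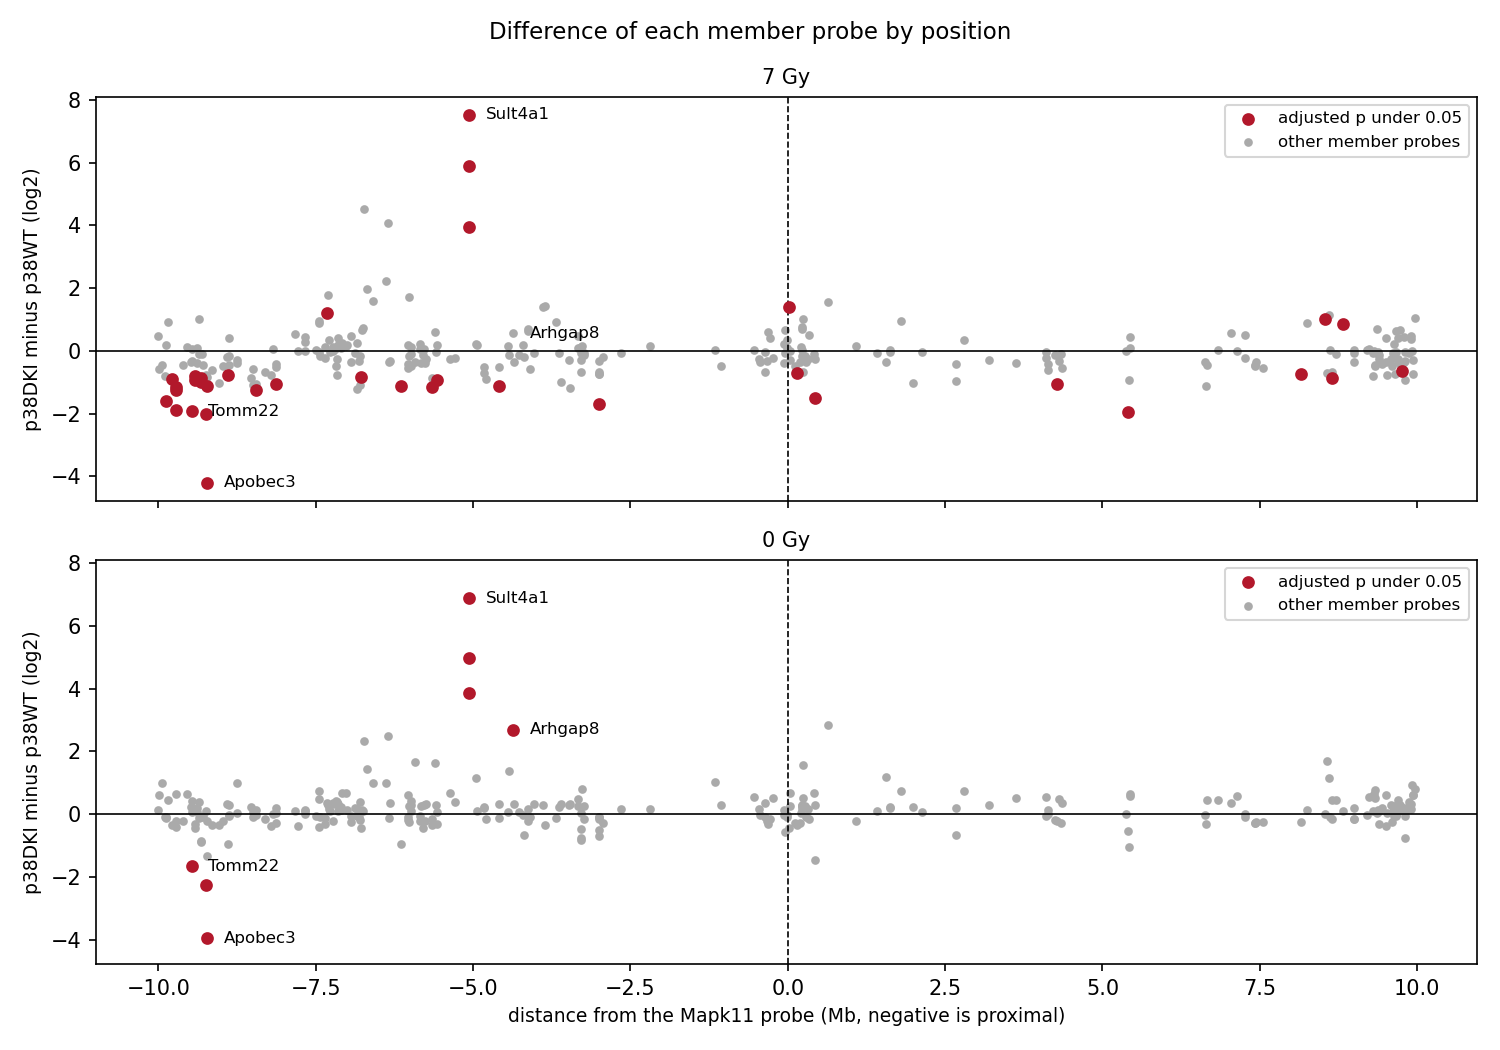
Difference between p38DKI and p38WT (log2, vertical axes) of the 302 member probes against distance from the Mapk11 probe (Mb, horizontal axis), after 7 Gy (upper panel) and at 0 Gy (lower panel), with probes past an adjusted p of 0.05 in red. At 0 Gy the 7 red probes belong to Tomm22, Apobec3, Sult4a1 and Arhgap8, all on the proximal side, and after 7 Gy the 36 red probes lie on both sides.

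The next comparison set irradiated against unirradiated blood within a genotype. In p38DKI 60 members passed (25%), against 31.3% of all genes, and in p38WT 49 members passed (20.4%), against 27.1%. In p38DKI 17 rose and 43 fell, and in p38WT 29 rose and 20 fell, a split that depends on the scaling. Without scaling the split was 37 up and 5 down in p38DKI and 5 up and 35 down in p38WT, with the array median it was 36 and 14 in p38DKI and 23 and 19 in p38WT, and with the percentile over probes detected on all arrays it was 15 and 59 in p38DKI and 21 and 33 in p38WT. The 5 largest rises and the 5 largest falls of each genotype kept their direction under these scalings and under quantile normalization, which were not run for the other genes named below. In both genotypes 25 members passed in the same direction (10.4%), against 15.8% of all genes. Without irradiated p38DKI array 2, 59 members passed in p38DKI, and all 10 of its largest rises and falls were among those that passed.

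Gtse1, a p53-binding protein of the G2 phase, was among the members with the largest fitted rises in both genotypes. It read -3.25, -4.40, -3.05, -3.16 and -2.95 in irradiated p38DKI, against -4.39, -5.14, -5.61, -5.02 and -4.66 in unirradiated p38DKI. The values overlapped at irradiated array 2, and none of the 5 unirradiated arrays of either genotype was well above background, against 5 irradiated p38DKI arrays and 1 irradiated p38WT array. The fitted change was 1.60 in p38DKI (SE 0.28, limma adjusted p = 0.000149) and 2.26 in p38WT (limma, adjusted p = 1.88e-06). Since the dim group has a bound and not a level, no fold is given for p38DKI, and the bound in p38WT is at least 1.01-fold. Twf1, which caps actin filaments, rose 2.85-fold in p38DKI (limma, adjusted p = 0.00206) and 3.14-fold in p38WT (limma, adjusted p = 0.000951). Pacsin2, a membrane-bending F-BAR protein, rose 2.64-fold in p38DKI and 2.98-fold in p38WT (limma, adjusted p = 0.000702 and 0.000221). Rnd1, a small GTPase, rose 2.08-fold in p38DKI and 3.62-fold in p38WT (limma, adjusted p = 0.0232 and 0.000284). Tspo rose 2.97-fold in p38WT (limma, adjusted p = 8.27e-05), and its change of 0.58 in p38DKI did not pass (limma, adjusted p = 0.0901). Tef rose 2.77-fold in p38DKI (limma, adjusted p = 0.00153), and its change of 0.60 in p38WT did not pass (limma, adjusted p = 0.188).

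Cacna1i, a T-type calcium channel, had the largest fall by log2 change in p38WT and the next after Endou in p38DKI. It read -2.67, -4.27, -2.68, -1.70 and -2.03 in irradiated p38DKI, against -0.37, 0.31, 0.58, 0.22 and -0.08 in unirradiated p38DKI, and -2.78, -2.52, -2.29, -2.00 and -2.40 in irradiated p38WT, against -0.12, 0.11, -0.26, 0.71 and 0.10 in unirradiated p38WT. The doses did not overlap in either genotype. The level was 6.97-fold lower after irradiation in p38DKI (limma, adjusted p = 1.92e-05) and 5.68-fold lower in p38WT (limma, adjusted p = 8.34e-05). Slc48a1, a heme transporter, was 6.02-fold lower in p38DKI and 2.72-fold lower in p38WT (limma, adjusted p = 4.61e-06 and 0.00272). Prr5, a subunit of mTOR complex 2, was 2.83-fold lower in p38DKI and 3.02-fold lower in p38WT (limma, adjusted p = 0.000143 and 7.53e-05). Rhebl1, a GTPase related to Rheb, was 2.85-fold lower in p38DKI and 1.98-fold lower in p38WT (limma, adjusted p = 3.38e-05 and 0.00259). Hdac10, the deacetylase next to Mapk11, was 2.15-fold lower in p38DKI and 2.82-fold lower in p38WT (limma, adjusted p = 0.00229 and 0.000123). Endou, an endoribonuclease, differed by -3.93 in p38DKI (limma, adjusted p = 0.000135), where 1 of 5 irradiated and 4 of 5 unirradiated arrays were well above background. It passed the filter through unirradiated p38DKI alone, the group where it was high. Its fall was therefore partly fixed by the filter. Pced1b differed by -1.90 in p38WT (limma, adjusted p = 0.0158), and by -0.98 without irradiated p38WT array 3 (limma, adjusted p = 0.0261), which read -3.46 against 1.05 to 1.20 on the other 4. LF200420 differed by 1.43 in p38DKI (limma, adjusted p = 0.0193), and by 1.06 without unirradiated p38DKI array 3 and 1.21 without unirradiated array 1, where it did not pass (limma, adjusted p = 0.0702 and 0.0604).

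Beside these changes, with 31.3% of all genes passing in p38DKI and 27.1% in p38WT, all 10 B cell markers fell in both genotypes. Neutrophil markers rose (8 of 10 in p38DKI, 10 of 10 in p38WT), and 7 of 8 erythroid markers in p38DKI and 5 of 8 in p38WT fell. T cell markers fell (8 of 10 in p38DKI, 5 of 10 in p38WT) and platelet markers rose (2 of 8 in p38DKI, 7 of 8 in p38WT). Of 7 monocyte markers 1 rose and 1 fell in p38DKI, and 2 rose and 2 fell in p38WT. No liver or heart muscle marker passed. The part of these cell types in the members' changes was not tested.

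**Figure D5:**
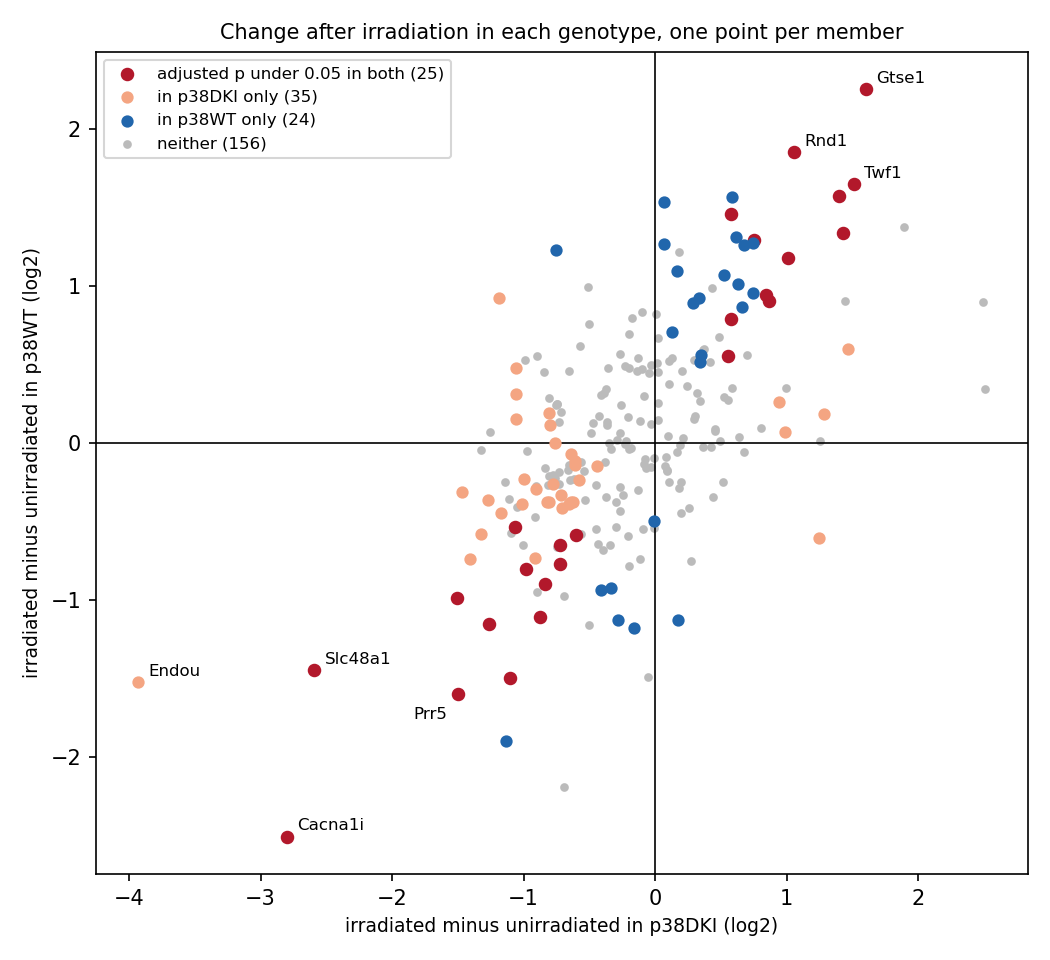
Change after irradiation (log2, irradiated minus unirradiated) in p38DKI (horizontal axis) and in p38WT (vertical axis), with 1 point for each of the 240 members, coloured by the genotype in which it passed an adjusted p under 0.05. The 25 members that passed in both genotypes lie in the quadrants of equal sign, 35 passed in p38DKI alone and 24 in p38WT alone, a split that does not show that the genotypes differ.

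Between p38DN and p38WT, 135 members passed at 0 Gy (56.2%), against 55.9% of all genes, and 98 after 7 Gy (40.8%), against 43.8%. Lower in p38DN were 84 at 0 Gy (35%), against 37.6% of all genes, and 57 after 7 Gy (23.8%), against 27.7%. Higher were 51 at 0 Gy (21.2%), against 18.3%, and 41 after 7 Gy (17.1%), against 16.1%. At an unadjusted p under 0.05 the members past the threshold were 150 at 0 Gy (62.5%), against 60.6%, and 119 after 7 Gy (49.6%), against 50.9%. The split depended on the scaling. With the percentile over probes detected on all arrays it was 75 higher and 51 lower at 0 Gy and 71 and 29 after 7 Gy, with the deposited values 70 and 41 at 0 Gy and 56 and 27 after 7 Gy, and without scaling 33 and 106 at 0 Gy and 37 and 21 after 7 Gy. The shares are near those of the array, and slide set and genotype cannot be told apart. Among the largest differences at both doses was Fam83f, of a family that binds casein kinase 1. It averaged 5.09 ± 0.83 in p38DN and 1.64 ± 0.45 in p38WT after 7 Gy, and 6.08 ± 0.44 in p38DN and 1.32 ± 0.27 in p38WT at 0 Gy (SD, n = 5 each). The difference was 3.46 after 7 Gy (limma, adjusted p = 1.33e-08) and 4.76 at 0 Gy (limma, adjusted p = 1.56e-11). Sox10, a neural crest transcription factor, was at least 12.5-fold higher in unirradiated p38DN, and no unirradiated p38WT array was well above background. Gm10864 and Wnt7b, a Wnt ligand, were at least 3.86-fold and 2.63-fold higher in irradiated p38DN. Sox10, Gm10864 and Wnt7b passed the filter only through p38DN groups, where they were high. The direction of their differences was therefore partly fixed by the filter. Srebf2, the regulator of sterol synthesis, was 11.8-fold higher in irradiated p38DN (limma, adjusted p = 3.39e-06). Lower in p38DN were Phf21b, a chromatin reader (at least 1.42-fold at 0 Gy and at least 2.25-fold after 7 Gy), the synaptotagmin Syt10 (5.86-fold after 7 Gy, limma adjusted p = 0.0172, but 0.0737 with a difference of -1.90 without irradiated p38WT array 3) and the leukocyte parvin Parvg (2.68-fold after 7 Gy, limma adjusted p = 0.00192).

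The Cyp2d genes, cytochrome P450 enzymes of the liver, form a cluster in the window, and 7 were members. All 7 passed as higher in unirradiated p38DN than in unirradiated p38WT (limma), against 18.3% of all genes. After 7 Gy none passed between p38DN and p38WT (limma), where 43.8% of all genes did. None passed between p38DKI and p38WT either (limma), where 0.101% of all genes passed at 0 Gy and 4.51% after 7 Gy. Cyp2d26 read -0.86, 5.90, -1.58, 6.47 and 6.52 in unirradiated p38DN, against -5.07, -5.19, -4.24, -3.99 and -4.21 in unirradiated p38WT. The high arrays were 2, 4 and 5, which were also those with the highest liver marker levels of that group (6.68, 7.65 and 7.61). On irradiated p38DKI arrays Cyp2d26 read -1.28, 8.56, -3.67, -0.92 and -0.55, with array 2 again the high one. No unirradiated p38WT array was well above background for Cyp2d26, which bounds the difference at no less than 6.82 log2 units. The fitted difference was 7.83 (SE 1.76, limma adjusted p = 0.000493), and -1.02 once the liver marker mean entered as a covariate (limma, adjusted p = 0.161). Cyp2d genes are close copies of each other, and whether their probes share transcripts was not tested.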

How the data were processed

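The authors deposited, for each of 30 arrays, a scanner table with a processed intensity per spot, made with Agilent Feature Extraction 12.0.2 per the submitters' processing notes and with no scaling between arrays per the file headers. They also deposited a value table of log2 intensities, which equalled log2 of the processed intensity minus a constant per array and was used as an alternative. Of 43020 spots that were not controls, the ones that the scanner software marked as outliers (uneven spots and population outliers) were dropped, repeated spots of a probe were averaged and log2 intensity was centred on the array's 75th percentile (43.3 to 230.4 in intensity). Genes needed at least 20 arrays with a value. Groups came from the labels. One cell-means fit over 6 groups (limma 3.58.1, R 4.3.3, 24 residual degrees of freedom) gave 7 comparisons, and its script was tested on simulated data. The named genes were: the 3 in question, members past the threshold between p38DKI and p38WT at a dose up to 12 each way, the 5 nearest to Mapk11 on each side, and up to 5 each way by log2 change in other comparisons, with up to 4 examples of a role list. Smaller falls at 7 Gy beyond the 12, and probes that did not stand for a gene, were named after their values were seen. The members, lists and rules were chosen with earlier results of these data known. Replicate numbers were not used to pair samples: of 5 pairs per comparison, between 0 and 3 correlated above 0.1. The 3 were pairs of irradiated and unirradiated p38DN arrays, with a correlation of up to 0.41. In p38DN the arrays of 1 replicate number shared a slide across the doses, and no comparison set those doses against each other. Alternatives covered scaling, background correction, filter, probe choice, slide, replicate number, liver transcripts and each array left out. Gene names came from the RefSeq table, for 201 of 240 members. Figures used Python 3.11.15 and matplotlib 3.10.9.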

Additional observations from a re-analysis of the deposited data

Results flagged for a closer look

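Among 116 groups of 5 arrays of 29 probes, 12 held 1 array far from the other 4, where chance alone flags about 1 group in 20. Of the 12, 6 were irradiated p38DKI array 2, the array rich in liver transcripts: Csnk1e at -0.17, Apobec3 at 0.67 at the second probe and -5.85 at the last probe, Mief1 at -1.13, Tef at 6.21 and Plxnb2 at 4.61. Unirradiated p38DKI array 1 stood apart for Mief1 (-2.91) and Tmem106c (-1.81), and unirradiated p38DKI array 5 for LF200447 (-2.44). Unirradiated p38WT array 5 stood apart for Tmem184b (1.71) and Sun2 (5.20), and irradiated p38WT array 3 for Gtpbp1 (1.26). Probes that did not stand for their gene also passed between p38DKI and p38WT after 7 Gy: Apobec3 by -2.01 and -4.19 at its outer 2 probes, Mrtfa, a serum response cofactor, by -1.05, the tubulin ligase family member Ttll1 by -1.15, Rtl6 by -1.12, Gramd4 by -1.69 and the Toll pathway kinase Irak4 by -1.96. Whether the probes of Mrtfa, Ttll1, Rtl6, Gramd4 and Irak4 pass without irradiated p38DKI array 2 was not tested. At the brightest probe of each of these genes, array 2 was the lowest irradiated p38DKI array.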

How the results depend on the processing

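Main counts of members past the threshold were 3 and 24 between p38DKI and p38WT at 0 and 7 Gy, 0 for the change with dose, 60 and 49 for irradiation in p38DKI and p38WT, and 135 and 98 between p38DN and p38WT at 0 and 7 Gy. At 0 Gy p38DKI against p38WT gave 1 with normexp background correction, 1 with slide as a fixed block, 7 with slide as a random block, 5 with the 2 groups fitted alone, 6 without the 4 arrays richest in liver transcripts and 10 with the liver covariate. At 7 Gy it gave 3 with array medians, 1 without scaling, 1 with normexp, 11 without the filter, 9 with the deposited table, 1 and 38 with slide as a fixed and a random block, 1 with the 2 groups alone, 8 without the 4 arrays and 4 with the liver covariate. The change with dose gave 1 with slide as a random block. The random block had an estimated correlation between arrays of a slide of -0.051, a negative value. Its larger counts are therefore not read as stronger differences once slide is allowed for. Irradiation gave 10 and 5 in p38DKI and 14 and 1 in p38WT with normexp and with slide as a fixed block. The p38DN comparisons gave 82 with the liver covariate at 0 Gy, and 58 without scaling and 2 with normexp at 7 Gy. A fixed slide block could not be fitted for p38DN. Leaving out 1 array at a time gave 3 to 4, 7 to 28, 0 to 0, 47 to 65, 39 to 51, 119 to 134 and 87 to 110, the 7 being without irradiated p38DKI array 2. For p38DKI against p38WT at 7 Gy the count was also 10 without irradiated p38WT array 4 and 16 without irradiated p38WT array 3. With the replicate number as a block the counts were 3, 26, 0, 60, 45, 132 and 98. Testing every probe, an alternative chosen after seeing the data, gave 4, 29 and 0 genes for the first 3 comparisons. Of 1497 recomputed values of 61 named results, 1263 kept direction and side, 223 no longer passed and 11 turned sign, 0 of them under another scaling. With normexp the turned values were -0.38 for Arhgap8 between p38DKI and p38WT at 7 Gy, -0.25 for Gtse1 and -0.18 for LF200420 after irradiation of p38DKI, and between p38DN and p38WT at 0 Gy 0.38 for Phf21b, 0.36 for AK044029, 0.0271 for AK089904, 0.40 for Olfr284 and 0.36 for LF200432. With the liver covariate they were -1.02 for Cyp2d26, -1.15 for Cyp2d10 and 0.11 for Olfr284. Scaling moved the median difference of all genes at 0 Gy to between -0.38 and 0.10, and at 7 Gy to between -0.05 and 0.49. The normexp offset of 50 shrinks differences of dim probes; other causes were not tested.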

Other observations

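Outside the window, 3 genes at the proximal end of chromosome 11 passed between p38DKI and p38WT at 0 Gy (limma): Patz1, a zinc finger protein (log2 difference 1.91), the ribosome biogenesis factor Pes1 (-1.69) and the neurofilament gene Nefh (-3.34). After 7 Gy their differences were 1.44, -0.08 and -0.89, and Patz1 passed again (limma, adjusted p = 0.0185). Farther along chromosome 11, Nog (1.45), LOC102640586 (1.78) and Fn3krp (3.38) also passed at 0 Gy (limma). Over the whole array 19 genes passed there (0.101%), and the genes tested near the proximal end of chromosome 11 were not counted. The chromosome 11 genes were named after their values were seen.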
